A study of Homo sapiens with 6 samples.

Results

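The BCL2 family comprises the proteins that decide whether the outer mitochondrial membrane is opened during apoptosis, and 10 of its genes were followed here: BCL2, BCL2L1, MCL1, BAX, BAK1, BCL2L11, BID, BAD, PMAIP1 and BBC3. They were taken as a fixed list, and a catalogue probe was counted as a member probe when its RefSeq accession mapped to one of these genes. Together, the 10 genes, of 19721 named genes on the array, were covered by 15 probes and 27 spots. All 15 probes passed the filter on low values, and all were well above background on all 6 arrays by the flag of the scanner software.

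One-color Agilent arrays, 6 in all, measured RNA of REH, a human line of B-cell precursor acute lymphoblastic leukemia (BCP-ALL) with the ETV6/RUNX1 translocation. The study states that REH has lost its other ETV6 allele. In the control group, 3 samples received a non-targeting shRNA, and in the knockdown group, 3 samples received an shRNA against the fusion. Both shRNAs came by lentivirus with a GFP marker and transduced cells were sorted for GFP, so transduction and sorting were shared by both groups. The control hairpin was itself an ETV6 shRNA that did not hit the fusion transcript, only 1 hairpin was used against the fusion, and the cells are a single line. The question was how the genes on either side of the apoptosis switch moved when the fusion was silenced.

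In this pathway, pro-survival proteins (BCL2, BCL-XL, MCL1) hold the effectors BAX and BAK1 in check. BH3-only proteins sense stress and either bind the pro-survival proteins or activate the effectors directly, after which the effectors form pores, cytochrome c leaves the mitochondrion and caspases are activated. B-lineage leukemia cells are known for their reliance on BCL2 and MCL1, and stress-induced ATF4 and DDIT3 (CHOP) are among the known inducers of PMAIP1 (NOXA) and BBC3 (PUMA).

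Promoters of members were examined first, since RUNX1 is one partner of the fusion and since BBC3 and PMAIP1 were the member probes that varied most between arrays. RefSeq promoters of GRCh38.p14, cut to the 250 bases before a start site, were found for 9 of the 10 genes, 15 promoters in all. MCL1 had no entry. In these, 3 sets of letters were searched on both strands: TGTGGT, the core of the RUNX motif, TGACG, the shorter site of the cAMP response element that ATF factors bind, and TGATGNAA, the core of the composite C/EBP-ATF element. Their matches did not overlap in the promoters shown. The 3 promoters printed are the only one with a RUNX core, from BCL2L1, and those of PMAIP1 and BBC3. All are given 5′ to 3′ on the gene's strand, and capitals mark the matches, which read as the reverse complement where the motif lies on the other strand.
BCL2L1, chr20:31723964-31724213, minus strand: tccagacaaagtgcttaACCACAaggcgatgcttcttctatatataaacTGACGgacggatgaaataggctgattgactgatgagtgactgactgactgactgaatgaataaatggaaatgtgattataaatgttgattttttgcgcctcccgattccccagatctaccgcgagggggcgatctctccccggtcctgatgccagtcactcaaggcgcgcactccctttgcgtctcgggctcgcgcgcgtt
PMAIP1, chr18:59899746-59899995, plus strand: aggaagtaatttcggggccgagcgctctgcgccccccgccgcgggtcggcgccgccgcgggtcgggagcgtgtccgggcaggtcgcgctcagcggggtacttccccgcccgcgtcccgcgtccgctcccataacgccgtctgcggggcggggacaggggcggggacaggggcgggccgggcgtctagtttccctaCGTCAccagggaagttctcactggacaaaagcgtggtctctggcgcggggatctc
BBC3, chr19:47232668-47232917, minus strand: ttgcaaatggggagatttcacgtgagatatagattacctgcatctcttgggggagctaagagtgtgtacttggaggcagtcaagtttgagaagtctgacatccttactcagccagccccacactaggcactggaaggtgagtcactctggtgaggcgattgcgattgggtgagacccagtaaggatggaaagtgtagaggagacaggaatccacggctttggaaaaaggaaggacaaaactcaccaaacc
The BCL2L1 promoter held the RUNX core from position 18 and the TGACG site from position 50, counted from the 5′ end of the printed sequence, and the second BCL2L1 promoter held neither. A RUNX core occurred in 11.0% of all 35116 RefSeq promoters of this length and in 1 of the 15 of the family. TGACG occurred in 21.2% of all promoters and in 6 of the family's 15, belonging to BAD, BAX, BCL2, BCL2L1 and PMAIP1. The BAD promoters overlap and hold the same TGACG site, which is counted in each. Promoters of BID overlap as well, so the 15 are not distinct sequences and these counts do not measure an enrichment. In PMAIP1 it began at position 196. The composite element, held by 3.14% of all promoters, was in none of the 15. GC content was 72.8% in the PMAIP1 promoter against 49.2% in that of BBC3, which held none of these letters. A match is a description of the letters and does not show binding, and absence says only that the letters are not in this window.

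No member of the family changed with knockdown by the test used. Values below are normalized log2-scale values, differences are knockdown minus control on the same scale, and n = 3 arrays per group throughout. A probe is called when its limma adjusted p was under 0.05. Among all 32528 retained probes, 420 were called (1.29%), 315 lower (0.968%) and 105 higher (0.323%), and among the 15 member probes 0 were called, with adjusted p from 0.522 to 0.990. With a background share this low, a count of 0 among 15 probes does not set the family apart from other probes. At an unadjusted p under 0.05 there were also 0 member probes, against 11.5% of all probes. With the replicate number as a block, 1.84% of all probes passed the adjusted and 16.1% the unadjusted threshold, and again 0 member probes did. Among member probes, 8 were higher and 7 lower in knockdown, whereas scaling on 6 spike-in probes, which moved the median of all probes by 0.35, put all 15 higher. The deviation of these spike-in probes from their mean over arrays was 0.46, 0.14 and -0.07 in control replicates 1 to 3. In knockdown replicates 1 to 3 it was -0.27, -0.16 and -0.10. Differences relative to the bulk of probes ran from -0.15 to 0.22. The 95% interval of the difference lay within 0.5 of 0 for 13 of the 15 probes, with PMAIP1 and BBC3 as the exceptions, compared with 66.3% of all probes. It lay within 1 of 0 for all 15, compared with 94.3%. Median within-group SD was 0.121 for member probes against 0.153 for all probes. All member probes were well above background on every array, which not all retained probes were. These shares therefore do not compare probes of like brightness. Levels reflect RNA from whole samples, so a smaller number of cells expressing a gene and less RNA per cell cannot be told apart.

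**Figure D1:**
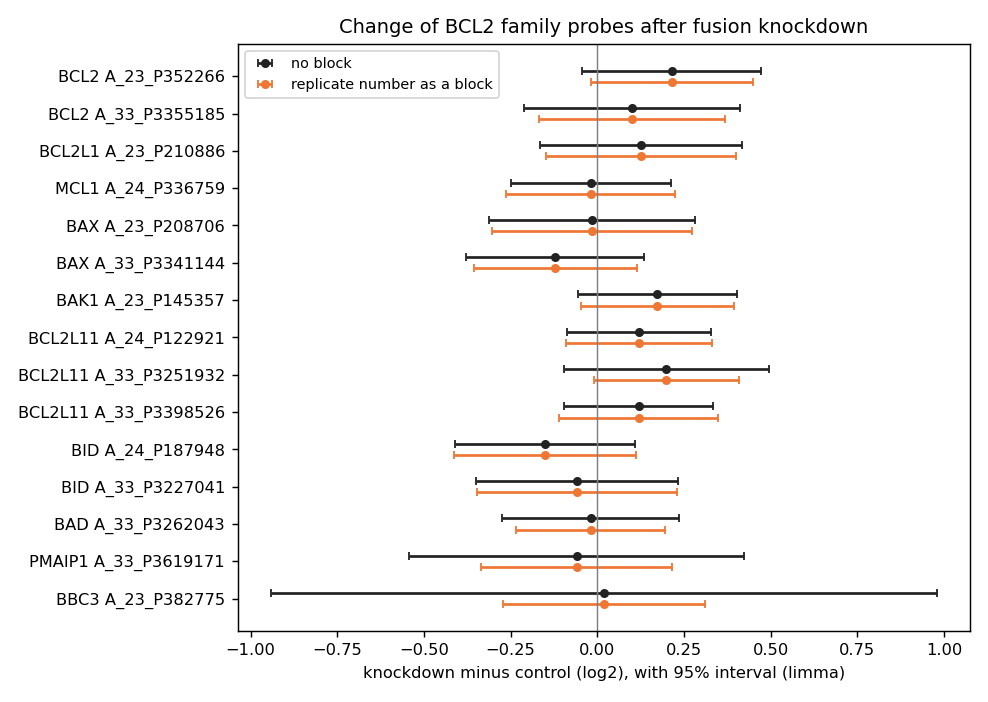
Difference between knockdown and control for each of the 15 member probes (x axis, log2 scale, limma estimate with 95% interval), without a block (black) and with the replicate number as a block (orange). Every interval includes 0, and those of BBC3 and PMAIP1 narrow most with the block.

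First, the pro-survival genes were examined. BCL2, the founding member and the target of venetoclax, was covered by 2 probes, A_23_P352266, designed on NM_000633, and A_33_P3355185, designed on NM_000657. Where the probes of the family lie within their transcripts was not analysed here, so no value is assigned to a single isoform. The first probe, printed in 5 spots, measured 12.98, 12.92 and 12.78 in control replicates 1 to 3 and 13.25, 12.99 and 13.08 in knockdown. All 3 knockdown arrays lay above all 3 control arrays, though knockdown replicate 2 exceeded control replicate 1 only narrowly. Its difference of 0.22 (SE 0.11, 95% interval -0.04 to 0.47, limma adjusted p = 0.522) was the largest rise among member probes, a fold of 1.16 that did not pass the test. The 5 spots of this probe spread with an SD of 0.041 to 0.163 within an array (median 0.113). Between arrays of one group the SD was 0.119, taken on spot means and so not directly comparable with that of single spots. The second probe measured 12.64, 12.39 and 12.42 in control and 12.69, 12.71 and 12.35 in knockdown. Here the groups overlapped, since knockdown replicate 3 was the lowest of the 6 arrays, and the difference was 0.10 (95% interval -0.21 to 0.41, adjusted p = 0.818).

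BCL2L1, which encodes the survival protein BCL-XL, was measured by 1 probe in 5 spots, A_23_P210886 (NM_138578), at 8.89, 8.56 and 8.71 in control and 8.79, 8.75 and 9.01 in knockdown. Knockdown replicate 3 was the highest array and control replicate 2 the lowest. The groups overlapped, with a difference of 0.13 (95% interval -0.17 to 0.42, adjusted p = 0.746). The difference was 0.04 without control replicate 2 and 0.21 without control replicate 1. All 4 member spots dropped for an outlier flag belonged to this probe. MCL1, a short-lived survival protein that binds NOXA and BIM, had 1 probe, A_24_P336759 (NM_021960), at 10.82, 10.87 and 10.89 in control and 10.96, 10.81 and 10.75 in knockdown. The control arrays lay inside the range of the knockdown arrays, and the difference was -0.02 (95% interval -0.25 to 0.21, adjusted p = 0.959). As folds, this interval runs from 0.842 to 1.16.

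**Figure D2:**
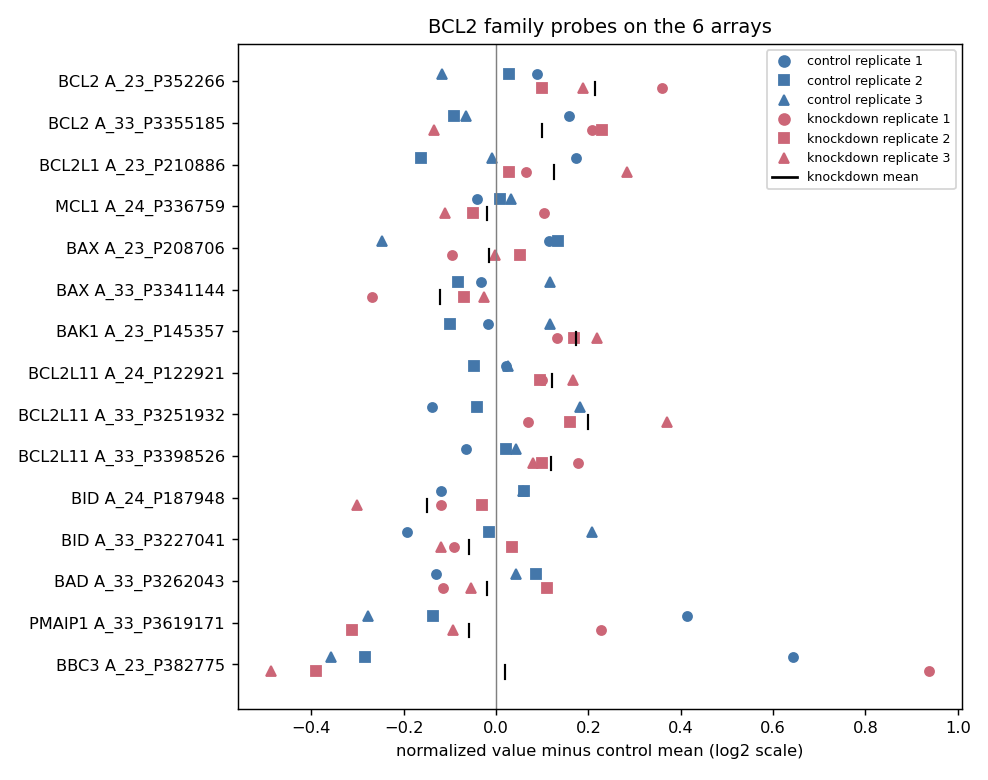
Normalized value of each of the 15 member probes on the 6 arrays, as the distance from the control mean of the same probe (x axis, log2 scale). Blue symbols are control and red symbols knockdown, the shape gives the replicate number and the black tick the knockdown mean, and the replicate 1 arrays of BBC3 and PMAIP1 lie to the right in both groups.

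Next, the effectors were determined. BAX, which moves to the mitochondrion when activated, had 2 probes. The first, in 5 spots, A_23_P208706 (NM_138764), measured 13.28, 13.30 and 12.92 in control and 13.07, 13.22 and 13.16 in knockdown. Control replicate 3 was the lowest array, the knockdown arrays fell between it and the other controls, and the difference was -0.02 (95% interval -0.31 to 0.28, adjusted p = 0.974). Its single spots spread with an SD of 0.127 to 0.205 within an array, and its spot means with an SD of 0.161 between arrays. The other BAX probe, A_33_P3341144 (NM_004324), measured 8.46, 8.41 and 8.61 in control and 8.22, 8.42 and 8.47 in knockdown, with overlapping groups and a difference of -0.12 (95% interval -0.38 to 0.14, adjusted p = 0.719). BAK1, the effector that resides in the mitochondrial membrane, was measured by A_23_P145357 (NM_001188) at 11.36, 11.27 and 11.49 in control and 11.51, 11.54 and 11.59 in knockdown. The groups did not overlap, but the lowest knockdown array was only just above control replicate 3, and the difference of 0.17 (SE 0.10, 95% interval -0.06 to 0.40, adjusted p = 0.563) did not pass the test.

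Among BH3-only genes, BCL2L11 encodes BIM, an activator of BAX and BAK1 that is central to the death of lymphocytes deprived of growth factors. Its 3 probes were all higher in knockdown, and none was called. A_24_P122921 (NM_138621) measured 10.52, 10.45 and 10.52 in control and 10.59, 10.59 and 10.66 in knockdown, groups that did not overlap, with a difference of 0.12 (95% interval -0.09 to 0.33, adjusted p = 0.664). A_33_P3398526 (NM_207002) measured 8.21, 8.30 and 8.32 against 8.45, 8.38 and 8.36, also without overlap, with a difference of 0.12 (95% interval -0.09 to 0.33, adjusted p = 0.674). A_33_P3251932, designed on the same accession, measured 7.81, 7.91 and 8.13 against 8.02, 8.11 and 8.32, where the groups overlapped but knockdown was higher at each of the 3 replicate numbers, by 0.20 on average (95% interval -0.10 to 0.50, adjusted p = 0.606). The 3 probes measure transcripts of 1 gene in the same samples and are not 3 independent observations.

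In total, groups did not overlap for 4 member probes, from BCL2, BAK1 and BCL2L11, all higher in knockdown. Among all probes with 6 values, groups did not overlap for 18%, with knockdown higher for 8.61% and lower for 9.44%. With slide row as a term, which leaves control replicate 3 against the knockdown arrays, these differences were 0.33 for BCL2, 0.06 for BAK1 and 0.10 and 0.08 for BCL2L11, with 0 called. A single probe with 3 arrays against 3 cannot reach a two-sided exact permutation p below 0.1.

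BID, which is cleaved by caspase-8 and links death receptors to the mitochondrion, had 2 probes designed on NM_197966. A_24_P187948 measured 13.35, 13.53 and 13.53 in control and 13.35, 13.44 and 13.17 in knockdown, a difference of -0.15 (95% interval -0.41 to 0.11, adjusted p = 0.664) and the largest fall among member probes. Knockdown was lower at each of the 3 replicate numbers, hardly so at replicate 1, and the groups overlapped because knockdown replicate 2 lay above control replicate 1. A_33_P3227041 measured 13.25, 13.43 and 13.65 in control and 13.35, 13.48 and 13.32 in knockdown, with a difference of -0.06 (95% interval -0.35 to 0.23, adjusted p = 0.892). BAD, a BH3-only protein that growth-factor kinases keep inactive by phosphorylation, was measured by A_33_P3262043 (NM_004322) at 11.51, 11.73 and 11.68 in control and 11.52, 11.75 and 11.59 in knockdown. Values followed the replicate number in both groups, with both replicate 1 arrays lowest, and the group difference was -0.02 (95% interval -0.27 to 0.24, adjusted p = 0.962).

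PMAIP1 and BBC3 differed little between groups and widely between replicate numbers. BBC3, which encodes the BH3-only protein PUMA, was measured by A_23_P382775 (NM_014417) at 11.29, 10.36 and 10.29 in control and 11.58, 10.25 and 10.16 in knockdown. Replicate 1 stood far above replicates 2 and 3 in both groups, by 1.17 on average. Its group difference was 0.02 with an SE of 0.41 (95% interval -0.94 to 0.98, adjusted p = 0.990), and with the replicate number as a block the interval narrowed to -0.27 to 0.31. PMAIP1, which encodes the MCL1-binding protein NOXA, was measured by A_33_P3619171 (NM_021127) at 12.10, 11.55 and 11.41 in control and 11.91, 11.37 and 11.59 in knockdown. Again, both replicate 1 arrays exceeded the other 4, by 0.53 on average. Its group difference was -0.06 (95% interval -0.54 to 0.42, with the block -0.33 to 0.22, adjusted p = 0.939).

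To test the replicate number itself, a limma F test was taken from the fit with group and replicate number as terms. By this test, 52 of all probes were called (0.16%), and 0 member probes. BBC3 came closest (F = 44.4, limma adjusted p = 0.0865), and PMAIP1 followed (F = 10.1, limma adjusted p = 0.261). These were the 2 member probes with an unadjusted p under 0.05, compared with 13.3% of all probes. Whether BBC3 was called depended on the processing. Its adjusted p ran from 0.00369 to 0.338 over 14 alternatives, was under 0.05 in 6 of them, and was 0.0484 on the deposited log2 values and 0.0464 without control replicate 1. In those 6, more of all probes were called than the 52 of the main fit. Their number ran from 129 of 27869 on the deposited values to 727 of 32449 with other limma settings. PMAIP1 was called in none of the 14, with an adjusted p from 0.0678 to 0.9999. Both replicate 1 arrays lay above the other 4 for the same 2 members and for 13.7% of all probes, and below them for 1 member, BAD, and for 12.9% of all probes. As counts, these shares are near the background and set the family apart in nothing. All 6 arrays came from 1 slide and 1 scan. What sets the replicate 1 samples apart was not tested.

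**Figure D3:**
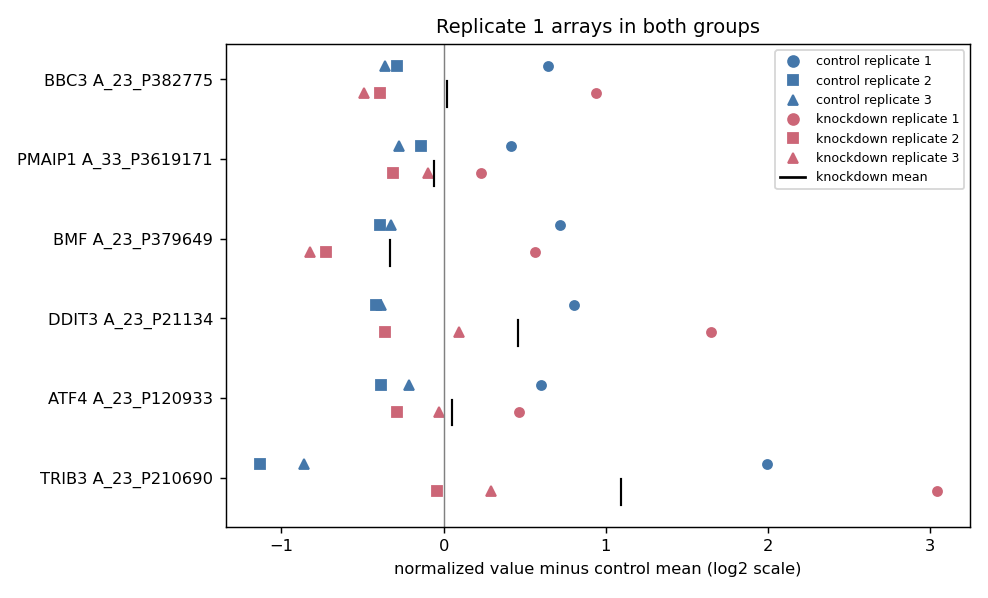
Normalized value on each array as the distance from the control mean of the same probe (x axis, log2 scale), for BBC3, PMAIP1 and 4 other probes chosen after their values were seen. Symbols are as in the plot of member values, and replicate 1 lies highest in both groups for all 6 probes.

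Genes of the integrated stress response, which holds some of the known inducers of BBC3 and PMAIP1, were read beside them, and other known inducers are not reported here. In the list for the integrated stress response, which has 12 genes, replicate 1 exceeded the other 4 arrays in both groups for 13 of 16 retained probes, and 7 probes were called for replicate number. These included TRIB3, a pseudokinase induced by ATF4, at 15.36, 12.23 and 12.51 in control and 16.41, 13.32 and 13.66 in knockdown (limma adjusted p = 0.00535 for replicate number). DDIT3, the transcription factor CHOP, measured 10.07, 8.85 and 8.88 in control and 10.91, 8.90 and 9.36 in knockdown, with replicate 1 higher by 1.495. ATF4 itself was higher by 0.76 in replicate 1. Neither DDIT3 (limma adjusted p = 0.0978) nor ATF4 (limma adjusted p = 0.137) was called for replicate number. For proliferation genes, both replicate 1 arrays lay below the other 4 for 9 of 15 probes. The part of these genes in the BBC3 and PMAIP1 values was not tested.

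Pro-survival and pro-death members were then compared by their changes, as a description without a test, with probes of a gene averaged first. The 3 pro-survival genes changed by 0.088 on average (BCL2 0.16, BCL2L1 0.13, MCL1 -0.02), and the 7 pro-death genes by 0.013 (BAK1 0.17, BCL2L11 0.15, BBC3 0.02, BAD -0.02, PMAIP1 -0.06, BAX -0.07, BID -0.10). Of the pro-survival genes 2 were higher and 1 lower, and of the pro-death genes 3 were higher and 4 lower, against a median of -0.001 for all probes. The mean of pro-survival genes minus that of pro-death genes was 0.076. On single arrays, taken from the control mean of each gene, this quantity was -0.020, -0.004 and 0.023 in control and 0.006, 0.092 and 0.129 in knockdown, so the groups overlapped at knockdown replicate 1. Leaving out BBC3, whose replicate 1 values weigh on the pro-death mean, gave 0.070, -0.041 and -0.029 in control and 0.138, 0.035 and 0.058 in knockdown, with a difference of 0.077 and the groups again overlapping. At replicate numbers 1, 2 and 3, knockdown minus control was 0.026, 0.096 and 0.106 with BBC3 and 0.068, 0.076 and 0.087 without it, so knockdown was higher in all 3 pairs. The SD of the quantity between arrays of one group was 0.047.

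Subsequently, the rest of the family and the pathway around it were read from the same fit. Over this list and those of the next paragraph, 1 of 66 retained probes was called, beside 1.29% of all retained probes. In the other BCL2 family genes, 15 of 18 probes were retained, 9 of them higher and 6 lower, including the called probe. This was BIK, a BH3-only protein of the endoplasmic reticulum, at 6.44, 6.53 and 6.53 in control and 7.17, 7.03 and 7.27 in knockdown. BIK was higher in all 3 knockdown arrays by 0.66 (SE 0.10, adjusted p = 0.0291, with the replicate block 0.0395). Adjusted p rose over 0.05 without any one of the 6 arrays, with slide row as a term, without a filter and with the processed signal. Over all alternatives it ran from 0.0019 to 0.220, while the difference stayed between 0.50 and 1.01. The largest fall in this list was that of BMF, a BH3-only protein released from the cytoskeleton, at -0.16 over its 2 probes, 1 of which was well above background on only 3 arrays. Its probe A_23_P379649 measured 9.30, 8.19 and 8.25 in control and 9.14, 7.86 and 7.76 in knockdown, the same high replicate 1 arrays as in BBC3.

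Downstream of the mitochondrion, 10 of 13 probes for the apoptosome and caspases were lower in knockdown, with a median of -0.10 and 0 called. In this and the other lists, the largest rise and fall are given per gene, with its probes averaged. At the extremes were ENDOG, a mitochondrial nuclease, at 0.09, and APAF1, the scaffold of the apoptosome, at -0.20. Among 7 probes of inhibitors of apoptosis, 3 were higher and 4 lower, from BIRC3 at 0.26 to BIRC7 at -0.64. The BIRC3 probe was well above background on 1 of the 6 arrays, so its value lies near the floor of the measurement. BIRC7, also called livin, measured 11.47, 11.09 and 10.75 in control and 10.88, 10.41 and 10.12 in knockdown. It was lower at each replicate number, with an adjusted p of 0.354 without a block and 0.0309 with the replicate number as a block, and it then counted as called. For death receptors and their ligands, 7 of 19 probes were higher and 12 lower, with 0 called and FAS (0.19) and the TRAIL receptor TNFRSF10B (-0.62) at the extremes. Of the 3 FAS probes averaged, 1 was well above background on 0 of the 6 arrays. TNFRSF10B moved to -0.97 without knockdown replicate 1 and to -0.33 without knockdown replicate 3. For partners at the mitochondrion, 5 of 12 probes were higher and 7 lower, with 0 called, from BCAP31 at 0.36 to MTCH2 at -0.11.

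Upstream, in the stress response list, 10 of 16 probes were higher and 6 lower with 0 called, from TRIB3 at 1.096 to SESN2 at -0.23. With the replicate number as a block, TRIB3 (adjusted p = 0.00872) and DDIT4, an inhibitor of mTORC1 (0.76, adjusted p = 0.0328), were called higher. TRIB3 was higher in knockdown by 1.05, 1.09 and 1.148 at replicate numbers 1, 2 and 3. Without a block, its difference was 0.12 without knockdown replicate 1 and 2.09 without control replicate 1, settings that leave a high replicate 1 array in 1 group alone. DDIT4 was higher by 0.87, 0.55 and 0.85 at these numbers, and its difference of group means was 0.27 and 1.19 without the same arrays. For proliferation genes, 12 of 15 probes were higher and 3 lower with 0 called, from PLK1 at 0.46 to CDK1 at -0.25. With spike-in scaling, both PLK1 probes (0.83 and 0.79, adjusted p = 0.0187 and 0.0277) and TRIB3 (1.45, adjusted p = 0.000178) were called higher, and CDK1 and SESN2 turned higher without a call.

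**Figure D4:**
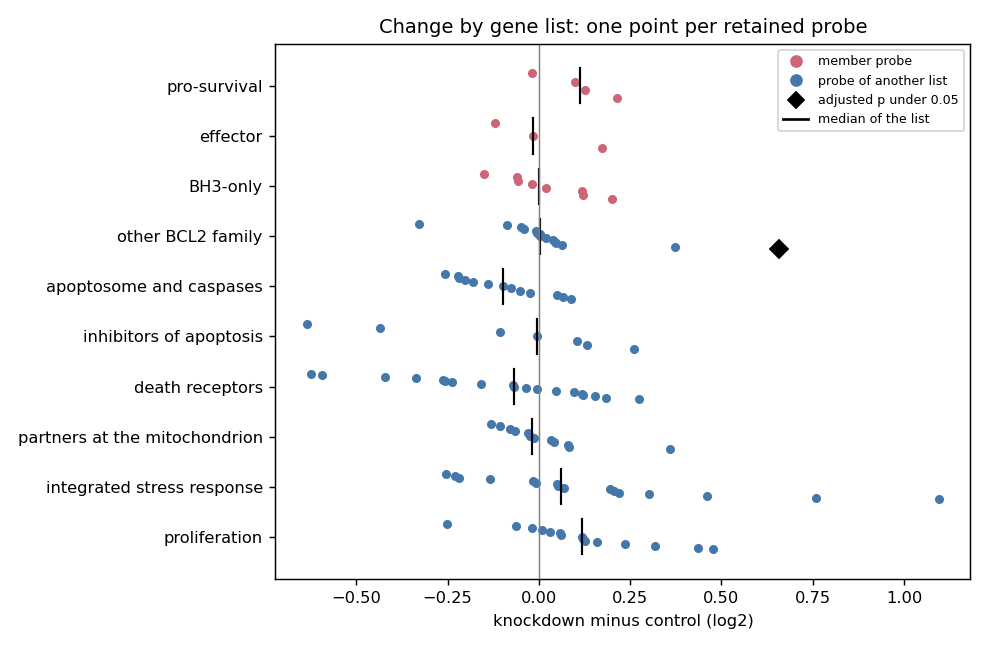
Difference between knockdown and control (x axis, log2 scale) of each retained probe in the 3 roles of the family and in 7 other lists, with the list median as a black line. The black diamond is BIK at 0.66, the 1 probe called, and member probes (red) lie between -0.15 and 0.22.

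Genes whose values followed those of members over the 6 arrays were named as a description. Closest to BCL2 probe A_23_P352266 were ARMH1 (Pearson's r = 0.996 over 6 arrays), ELMOD3 (r = 0.993) and XAF1 (r = 0.992). ARMH1 measured 12.81, 12.70 and 12.55 in control and 13.11, 12.77 and 12.90 in knockdown, an order of arrays that differed from that of BCL2 only in control replicate 1 and knockdown replicate 2. Closest to BBC3 were NARS1 (r = 0.997), APOE (r = 0.997) and SLFNL1 (r = 0.996), each with both replicate 1 arrays highest. These genes were picked as the highest of 19185 named probes, and arrays of one group and replicate number are shared by all of them.

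The targeted transcript and the identity of the cells were checked last. The study reports silencing of the fusion, with western blot and RT-qPCR of REH cells, and only array probes were read here. ETV6 probe A_33_P3356325 measured 7.92, 8.05 and 8.37 in control and 7.50, 7.46 and 7.29 in knockdown, lower in all 3 knockdown arrays by 0.70 (SE 0.14, adjusted p = 0.0688). This probe was called with the stricter filter (adjusted p = 0.0461) and once slide row entered the fit (-0.96, limma adjusted p = 0.0464), but under none of the other 14 alternatives. The second ETV6 probe was not above background. Where these probes lie relative to the fused portion was not analysed here. Markers of B-cell precursors were well above background on all 6 arrays for 16 of 18 probes, with VPREB1 as the exception, and their mean value per array was 11.96 to 12.04 in control and 12.21 to 12.25 in knockdown. Of the 16 retained probes 14 were higher in knockdown with 0 called, and 1 of IGLL1, the surrogate light chain, was called with the replicate block (0.68, adjusted p = 0.268 without it and 0.0294 with it). For T cells, this held for 1 of 5 probes, for erythroid cells for 2 of 5 and for natural killer cells for 1 of 6, with CD3G, HBB and NCAM1 not above background on any array. For myeloid cells it held for 4 of 5 probes, and their mean per array was 8.97 to 9.08 in control and 8.15 to 8.48 in knockdown. MPO, the myeloid enzyme myeloperoxidase, fell from 14.02, 13.97 and 13.87 to 12.30, 11.68 and 11.81 (adjusted p = 0.00177). CSF3R, a growth factor receptor of neutrophils, was lower by 1.58 (adjusted p = 0.0544, with the replicate block 0.00468), whereas CD14 and CSF1R differed by -0.13 and -0.05 without a call and ELANE was not above background. The part of these marker shifts in the members' values was not tested.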

How the data were processed

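Total RNA of 6 REH samples was labelled with Cy3 and hybridised to a custom Agilent array designed on hg19. The authors extracted spot intensity values with Feature Extraction 10.7.1.1, per the file headers, and the deposited scanner files were not normalized between arrays. The authors also deposited normalized log2 values for 27869 probes, used here as an alternative.

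The study's methods name VSN, background subtraction and limma. Here, the VSN model (affine calibration, inverse hyperbolic sine, 0.9 quantile of least squares kept) was written anew and run on raw median spot intensities. Its values approach log2 for bright probes and understate changes of dim ones. Outlier-flagged spots were dropped, no spot was saturated, and spots of a probe were averaged. A probe was retained when its intensity exceeded 1.1 times the 0.95 quantile of 308 negative control spots on 2 of 3 arrays of a group. Log2 fold changes correlated with those of the deposited values with r = 0.980 across probes. Median raw intensity was 66 to 75 per array, against 42.3 to 48.0 for negative controls, and 45.8% to 50.9% of probes were well above background. The number of arrays limits the precision.

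The comparison used limma 3.58.1 under R 4.3.3 (two-sided lmFit and eBayes) without a block, with Benjamini-Hochberg adjustment over all 32528 retained probes. The labels give both groups the replicate numbers 1 to 3, and deviations of same-numbered arrays from their group means correlated with r = 0.356, 0.197 and 0.149 over probes, so the numbers were taken to pair the samples. Between numbers, control 2 with knockdown 3 gave 0.158 and control 3 with knockdown 2 gave 0.138, so that replicate 1 stood apart while 2 and 3 were not told apart. The study calls them biological triplicates. Intervals are 95%. The fit was tested on simulated data, with the outcome not given here.

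RefSeq accessions of catalogue probes were matched to the RefSeq gene table of GRCh38.p14, which named 25728 of 34134. Named were all members, and of each list every called gene, the largest rise and the largest fall, with the 3 most alike genes of the member probes of lowest p for group and for replicate number. Other genes were named after their values were seen. Members and lists were chosen with earlier results of these data known. Alternatives covered normalization, scaling, filter, limma settings, probe averaging, replicate block, slide row and left-out arrays. One further gene list was analysed and is not reported here.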

Additional observations from a re-analysis of the deposited data

How the results depend on the processing

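No member probe was called under any of the alternatives run, with adjusted p of at least 0.118 and differences from -0.44 to 0.57. Replicate block, normexp with quantile normalization, deposited values, limma settings and both other filters kept the direction of all 15 member probes. Spike-in scaling shifted the median of all probes by 0.35 and turned all members higher: BAX 0.34 and 0.23, BID 0.20 and 0.29, MCL1 0.33, BAD 0.33 and PMAIP1 0.29 changed sign. So did CDK1 (0.10), SESN2 (0.12), APAF1 (0.15), BMF (0.024) and MTCH2 (0.25). With the processed signal, BAX (0.0014), MCL1 (0.037) and BAD (0.028) changed sign. With slide row as a term, which compares control replicate 3 with the knockdown arrays because the other row held only controls, BAX (0.23), PMAIP1 (0.22), SESN2 (0.40) and ENDOG (-0.049) did, and with normexp 1 BMF probe (-0.010). Slide row also moved, by over 1.5 times, BBC3 (0.38), MCL1 (-0.050), BAD (-0.062), BID (-0.27), BCL2L11 (0.018 for A_33_P3251932), the other BAX probe (-0.24), the other BCL2 probe (0.17), BIRC7 (-0.28), BMF (-0.0014 and 0.019), TNFRSF10B (-0.38), TRIB3 (1.95), APAF1 (-0.31), MTCH2 (-0.31), CDK1 (-0.44), PLK1 (0.30 and 0.26) and 1 FAS probe (0.043), with none of these called. Leaving out single arrays turned BBC3 (-0.44 to 0.34), PMAIP1 (-0.20 to 0.15), BAX (-0.14 to 0.052), BAD (-0.085 to 0.029), MCL1 (-0.080 to 0.027), 1 BID probe (-0.16 to 0.046), BMF (-0.77 to 0.032 and -0.052 to 0.066), SESN2 (-0.87 to 0.40) and FAS (-0.12 to 0.25). Without a change of sign, values moved by over 1.5 times for BCL2L1 (0.044 to 0.21), 1 probe each of BCL2 (0.036 to 0.22), BAX (-0.17 to -0.047), BCL2L11 (0.11 to 0.29) and BID (-0.21 to -0.075), and for APAF1 (-0.36 to -0.065), ENDOG (0.034 to 0.16), CDK1 (-0.37 to -0.080), 1 PLK1 probe (0.29 to 0.66), MTCH2 (-0.22 to -0.0032), BIRC3 (0.11 to 0.40) and the other FAS probes (0.039 to 0.46 and 0.10 to 0.25). The cause was not tested.

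The count of all called probes was 261 with the processed signal, 1530 with spike-in scaling (1337 higher, 193 lower), 224 without a filter, and 146 to 370 with an array left out, 230, 146 and 213 without control replicates 1, 2 and 3 and 161 and 146 without knockdown replicates 2 and 3. It was 599 with the replicate block, and a filter on the normalized scale, chosen after seeing the data, gave 478. Called probes of the other family, apoptosome, inhibitor, death receptor and partner lists, 1 in all, were 0 with the processed signal, without a filter, with slide row and without any single array (0 to 0), and 2 with normexp (BCAP31 beside BIK) and 2 with the replicate block, which added BIRC7 and changed no member's call. For replicate number, 1 member probe, BBC3, was called with normexp, deposited values, the stricter filter, the limma settings and the filter on the normalized scale, and 0 to 1 with an array left out. All probes called for replicate number were 415, 129, 324, 727 and 158 in these settings, in that order, and 175 without control replicate 1, against 52 in the main fit. The pro-survival minus pro-death difference ran from 0.049 to 0.111 with an array left out. A block was not run for replicate number, which is tested in the blocked fit.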
